A study of Arabidopsis thaliana with 24 samples.

Results

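Rosettes fed on by Pieris brassicae caterpillars, the larvae of the large white butterfly, were compared with rosettes fed on by the spider mite Tetranychus urticae, in plants that had not been primed. Libraries were chosen by label alone: 4 not-primed caterpillar libraries and 4 not-primed mite libraries, 8 of the 24 libraries of the study. All were wild-type Arabidopsis thaliana (genotype WT) treated as seed with water (H2O), and both groups were sampled 24 hours after infestation. The same contrast in plants from seed treated with methyl jasmonate, called primed, adds 8 libraries where it is used. The remaining 8 libraries are pest-free controls of both kinds, and only the 4 not-primed ones are used here, to place a level. The labels number biological replicates without saying whether a replicate was 1 plant or a pool. The spread behind each p-value is therefore that between these libraries, and how far it reflects single plants is not given. They also give no ecotype, plant age, or number of animals per plant, so the kind of pest and the amount of feeding cannot be told apart.

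Caterpillars cut and swallow leaf tissue, whereas spider mites pierce single mesophyll cells with stylets and suck out their content. Leaves meet both with jasmonic acid (JA), the wound hormone, whose active conjugate lets the receptor COI1 remove JAZ repressors from MYC transcription factors. Salicylic acid (SA), the hormone of defence against biotrophic microbes, is made through ICS1, EDS5 and PBS3 and acts through NPR1 and WRKY factors. In the Brassicaceae, glucosinolates and the myrosinases that break them down form a further defence layer, and generalist and specialist herbivores differ in how they cope with it.

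Totals were between 17915337 and 26956821 counts over the 8 libraries, and genes with few counts are measured least precisely. Of 32833 genes, 7782 had no count in these libraries, 5803 had counts but stayed below the filter on low counts, and 19248 were tested with edgeR's quasi-likelihood test. Levels are given in CPM (which scales counts to a common normalized library size) when the same gene is compared between libraries, and in FPKM (scaled by the authors for gene length and library size before deposit) when genes are compared with each other. Fold changes are log2 of caterpillar over mite with their standard error (SE, n = 4 libraries in each group), and a gene counts as changed when its Benjamini-Hochberg adjusted p is under 0.05. Along the first principal component, with 48.2% of the variance, the pests were separate: the caterpillar libraries lay between −34.1 and −28.05 and the mite libraries between 24.62 and 36.77. The second held 11.56% and set caterpillar libraries 1 and 2, at 22.07 and 17.46, apart from caterpillar libraries 3 and 4, at −27.01 and −10.16, while the mite libraries lay between −8.69 and 4.81. Results that rest on either pair are therefore also given without it. The pairs were chosen from these data. Calls gained or lost without a pair therefore describe the pair and are no test. Reads of near-identical relatives, among them LHCB1, RBCS, PDF1.2, AOC, VSP, IGMT, MBP, BGLU and CRK genes, cannot be apportioned, and whether counting used the strand is not given in the sources used here.

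Under caterpillars 5076 genes differed from mites, 26.4% of those tested, with 2628 higher (13.7%) and 2448 lower (12.7%). Larger differences ran mostly one way: 99 genes (0.514%) were at least 2-fold higher and 602 (3.13%) at least 2-fold lower under caterpillars. In 5199 genes (27.0%) the 4 caterpillar libraries did not overlap with the 4 mite libraries. Higher genes were 51.8% of those changed, and 38.9% (1908 higher and 3002 lower) when counts were scaled by library totals only, which moved the median of all genes from 0.0017 to −0.0445 on the log2 scale. Without caterpillar libraries 3 and 4 the count of changed genes was 3551, against 4773 without caterpillar libraries 1 and 2.

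**Figure D1:**
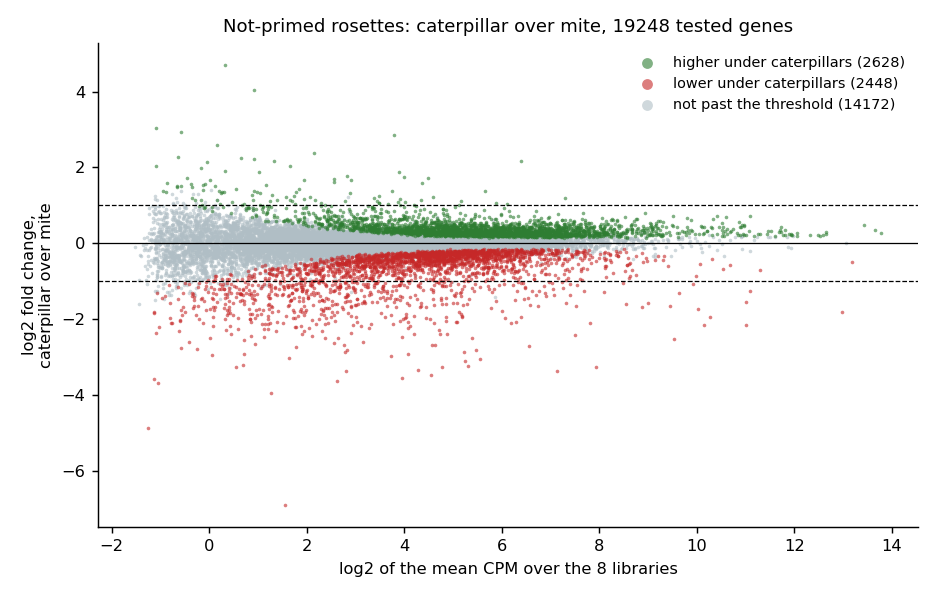
Each point is 1 of 19248 tested genes, with log2 of its mean CPM over the 8 libraries on the x axis and the log2 fold change of caterpillar over mite on the y axis; dashed lines mark a 2-fold difference. Below the lower line lie 602 red genes, above the upper line 99 green ones.

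Salicylic acid genes were lower under caterpillars than under mites almost throughout. Of 20 tested genes of SA synthesis and signalling, 18 were lower and none was higher, where 12.7% of all genes were lower. The median log2 fold change was −1.12, against 0.002 over all tested genes, and 12 of the 18 were at least 2-fold lower. The summed level of the list was between 307 and 348 CPM in the caterpillar libraries and between 529 and 744 CPM in the mite libraries. This list and the lists and families that follow were chosen with earlier results of these data known. Their counts are therefore a description without a test. Each is to be read against the 13.7% of all tested genes that were higher and the 12.7% that were lower. In rosettes, a lower level can mean fewer cells of a type or less RNA per cell, which cannot be told apart in bulk samples.

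PBS3 (AT5G13320), which conjugates isochorismate to glutamate on the way to SA, had 8.92, 7.48, 12 and 8.18 CPM in the caterpillar libraries, against 43.8, 31.8, 30.2 and 42.5 CPM in the mite libraries. The groups did not overlap, and every mite library held more than 2 times the highest caterpillar value. Its log2 fold change was −2.01 ± 0.15 (SE), with an edgeR adjusted p of 1.10e-06. Upstream and beside it, the synthase ICS1 (AT1G74710) differed by −0.81 ± 0.11 and the plastid exporter EDS5 (AT4G39030) by −1.31 ± 0.13, and both groups were again apart. The calmodulin-binding activators of ICS1 transcription, SARD1 and CBP60G, differed by −1.84 and −1.36 on the log2 scale. Of the lipase-like partners that relay immune receptor signals to SA, PAD4 was at −1.46, SAG101 at −1.16 and EDS1 at −0.74.

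WRKY62 (AT5G01900), a WRKY factor downstream of SA, was the member with the lowest fold change. It had 5.12, 3.55, 4.96 and 2.32 CPM in the caterpillar libraries, against 37.1, 20.9, 24.2 and 36.6 CPM in the mite libraries, a difference of −2.91 ± 0.23 (SE, edgeR adjusted p = 1.83e-06). No caterpillar library reached the lowest mite library. WRKY46, WRKY38 and WRKY70 were lower by smaller amounts, at −1.92, −1.62 and −0.71. Of the SA receptors, NPR1 was lower by 0.41 and NPR3 by 0.39 on the log2 scale. The receptor NPR4 did not pass the test, at −0.04, and neither did the acyltransferase EPS1, at −0.33, which was lower without caterpillar library 1 or without caterpillar libraries 1 and 2.

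Among 6 outputs of SA and of systemic resistance, 3 were lower and none higher, with a median of −0.86. PR2 (AT3G57260), a secreted beta-1,3-glucanase, had 42.3, 81.4, 28.5 and 33.5 CPM in the caterpillar libraries, against 625, 382, 339.9 and 424 CPM in the mite libraries. Mite library 1 stood highest and the groups did not overlap, with a log2 fold change of −3.26 ± 0.29 (SE, edgeR adjusted p = 3.82e-06), 9.58-fold lower under caterpillars. PR1 (AT2G14610), the marker protein of systemic acquired resistance, had 5.41, 6.03, 13.6 and 9.47 CPM in the caterpillar libraries and 73.1, 32.1, 10.5 and 23 CPM in the mite libraries. Its groups overlapped, since caterpillar library 3 lay above mite library 3, and its log2 fold change was −1.97 ± 0.45 (SE, edgeR adjusted p = 0.0053). PR5, ALD1 and FMO1, the last pair making the systemic signal N-hydroxypipecolic acid, had log2 fold changes of −0.64, −0.78 and −0.45 and did not pass. Without mite library 3, 5 of the 6 outputs were lower, PR5 and ALD1 added. ALD1 was also lower without caterpillar library 4 or without caterpillar libraries 3 and 4, and PR5 without caterpillar libraries 1 and 2.

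Of 7 genes of SA turnover, 5 were lower and 1 was higher, with a median of −0.69. The hydroxylase DMR6 was at −1.27, its relative AT4G10500 at −2.04 and the glucosyltransferase UGT76B1 at −1.14. UGT74F2, which makes SA glucose ester, was higher by 0.60 on the log2 scale. The 5 became 3 with all 24 libraries in 1 fit or with limma without a filter, and, with the methyltransferase BSMT1 and the methyl esterase MES9 dropping out, also without caterpillar library 4, without mite library 1 or 4, or without caterpillar libraries 3 and 4.

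Genes of cell surface receptors and their relays were mostly lower as well. Of 28 tested genes of pattern and damage perception, 18 were lower and none higher, with a median of −0.55. The flagellin receptor FLS2 was at −0.63, the EF-Tu receptor EFR at −0.84, the chitin receptor kinase CERK1 at −0.53, and the co-receptors BAK1 and SOBIR1 at −0.41 and −1.38. SOBIR1 (AT2G31880), which stands behind receptor-like proteins without a kinase domain, had 62.7, 67.3, 71.3 and 64.0 CPM in the caterpillar libraries, against 226, 151, 156 and 161 CPM in the mite libraries. The kinase gene FRK1 (AT2G19190), a common reporter of pattern recognition, was at −2.27 ± 0.38 (SE), but near the filter, with means of 0.735 CPM in caterpillar and 3.63 CPM in mite libraries. Receptors of plant-derived peptides and of glutamate did not pass the test: PEPR1, PEPR2, GLR3.3 and GLR3.6 lay between −0.24 and 0.23, though PEPR1 and GLR3.3 were lower without caterpillar libraries 1 and 2. The MAP kinase MPK3 was at −0.57, the oxidase RBOHF at −1.11 and WRKY33 at −0.60. Without caterpillar library 4, 1 member was higher.

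Cysteine-rich receptor-like kinases (CRKs), a tandem family of surface kinases with cysteine-rich domains outside the cell, held some of the largest differences. All 9 listed members were lower, and over the whole family, taken by annotation, 23 of 31 tested members were lower and 3 higher, with a median of −1.12. CRK13 (AT4G23210) had 2.70, 1.41, 3.32 and 2.17 CPM in the caterpillar libraries, against 31.7, 23.7, 27.7 and 30.7 CPM in the mite libraries. The highest caterpillar value lay far below the lowest mite value, and the log2 fold change was −3.55 ± 0.18 (SE, edgeR adjusted p = 4.29e-08). CRK5 (AT4G23130) was at −1.56 ± 0.13 and CRK6 (AT4G23140) at −1.93 ± 0.21, with groups apart. The higher members were CRK21, CRK30 and CRK42 (AT5G40380), at 0.36, 1.44 and 0.54. These 3, and RLP40, WRKY60, CML41 and the resistance genes named in the families that follow, were chosen after their values were seen. CRK21 lost its call without caterpillar library 4 or without caterpillar libraries 3 and 4.

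Receptor-like proteins, which carry leucine-rich repeats outside the cell and no kinase inside, gave 28 lower and no higher genes among 45 tested, with a median of −0.96. RLP53 (AT5G27060) had 8.23, 9.52, 7.25 and 5.52 CPM in the caterpillar libraries, against 90.1, 52.5, 61.0 and 80.6 CPM in the mite libraries, and RLP40 (AT3G24982) had 6.21, 6.85, 5.03 and 7.68 CPM, against 47.0, 37.4, 36.0 and 44.7 CPM. Both sets of libraries were apart, with log2 fold changes of −3.23 ± 0.18 and −2.68 ± 0.13 (SE). Without caterpillar libraries 1 and 2, 1 receptor-like protein was higher. Inside the cell, 68 of 122 genes annotated with TIR, NB-ARC or NBS domains of resistance proteins were lower and 2 were higher, with a median of −0.35. One of the 2, AT4G19530, averaged 108 CPM in caterpillar and 83.3 CPM in mite libraries; the other was AT4G23440, and 1 of the 2 was lost on leaving out caterpillar library 1 or 4, mite library 1, 2 or 4, or either caterpillar pair. Calmodulin-like and EF-hand proteins, sensors of calcium, gave 34 lower and 3 higher genes among 89, with a median of −0.19, led by CML41 (AT3G50770) at −2.40 ± 0.15 (SE). The 3 became 1 without caterpillar library 3 or without mite library 1, 3 or 4.

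Transcription factors of the WRKY family, which bind W-box motifs in defence promoters, gave 21 lower and no higher genes among 39 tested, with a median of −0.46. WRKY60 (AT2G25000) had 5.47, 5.20, 7.58 and 5.02 CPM in the caterpillar libraries, against 33.7, 28.8, 27.3 and 33.8 CPM in the mite libraries, at −2.40 ± 0.13 (SE). Chitinases, which cut the cell wall polymer of fungi and the cuticle polymer of arthropods, gave 8 lower and no higher genes among 14, with a median of −0.78. AT2G43620, annotated as a chitinase family protein, had 3.74, 3.6, 4.05 and 2.59 CPM in the caterpillar libraries, against 37.3, 33.9, 33.5 and 37.9 CPM in the mite libraries. Its values within each group were close together, and the log2 fold change was −3.36 ± 0.12 (SE, edgeR adjusted p = 1.15e-09).

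**Figure D2:**
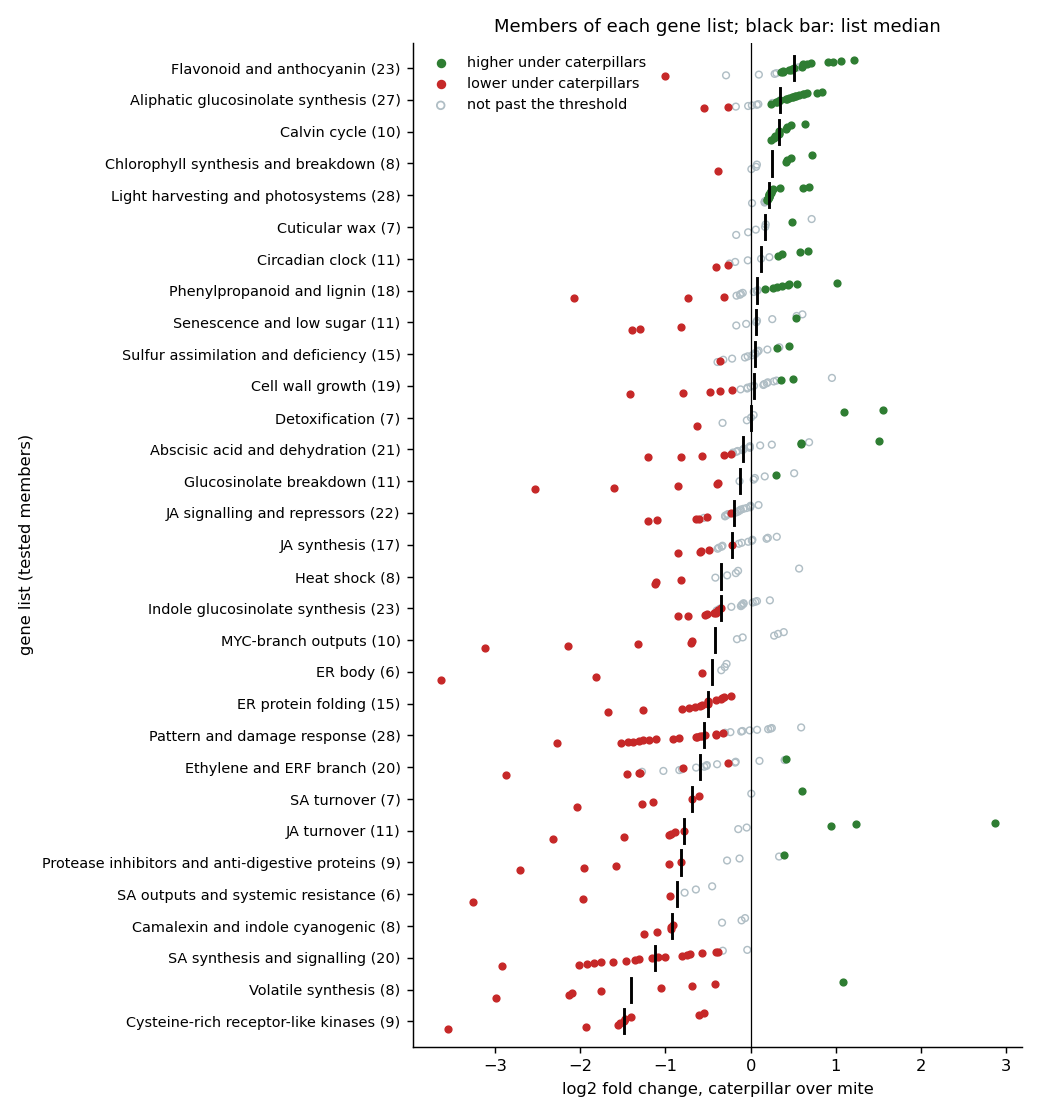
Each circle is a tested member of a gene list, placed by its log2 fold change of caterpillar over mite; filled green circles were higher, filled red circles lower and open circles did not pass, and the black bar is the list median. Medians run from 0.51 for flavonoid genes at the top to −1.48 for the CRK list at the bottom.

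Because W-boxes are the sites WRKY factors bind, the 250 bases before each annotated gene start were searched for TTGACC or TTGACT on both strands, in RefSeq assembly TAIR10.1. Of 602 promoters of genes at least 2-fold lower under caterpillars, 267 (44.4%) held at least 1 W-box, against 5349 of 19168 (27.9%) over all tested genes with a promoter. At least 2 copies stood in 15.8% of the lower genes and 5.9% of all. Genes that were lower by any amount held a W-box in 37.6%, genes that were higher by any amount in 22.3%, and genes past neither threshold in 27.3%; the 98 promoters of genes at least 2-fold higher gave 30.6%. Mean GC content was 30.7% in the promoters of strongly lower genes and 31.6% in all. In the CRK list 5 of 9 promoters held the W-box (55.6%). The TGACG motif stood in the same share of that list, against 19.4% of all tested genes with a promoter. The SA list, with 4 of 20, had a smaller share than the 27.9% of all tested genes, although most of its genes were lower. So did the list of protein folding in the endoplasmic reticulum described below, with 2 of 15 (13.3%). The W-box does not overlap in sequence with the G-box or the ER stress element described below, and a match describes these letters in this window and no more.

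Promoters of 4 lower genes with at least 2 copies are shown because they carry the motif counted above; each reads 5′ to 3′ on the gene's strand and ends at the base before the annotated start, with the W-boxes in capitals (reverse copies read AGTCAA or GGTCAA).
CRK5, chr4:12120221-12120470, minus strand: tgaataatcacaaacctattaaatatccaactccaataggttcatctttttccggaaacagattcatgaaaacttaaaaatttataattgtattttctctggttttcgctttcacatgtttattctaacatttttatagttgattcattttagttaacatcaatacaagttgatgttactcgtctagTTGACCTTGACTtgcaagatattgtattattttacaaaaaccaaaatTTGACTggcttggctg
WRKY62, chr5:352096-352345, minus strand: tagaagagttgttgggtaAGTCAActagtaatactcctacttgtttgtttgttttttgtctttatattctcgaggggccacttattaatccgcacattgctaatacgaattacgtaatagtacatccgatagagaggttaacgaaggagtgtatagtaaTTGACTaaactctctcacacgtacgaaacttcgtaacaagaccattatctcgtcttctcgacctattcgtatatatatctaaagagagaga
AT2G43620, chr2:18095094-18095343, minus strand: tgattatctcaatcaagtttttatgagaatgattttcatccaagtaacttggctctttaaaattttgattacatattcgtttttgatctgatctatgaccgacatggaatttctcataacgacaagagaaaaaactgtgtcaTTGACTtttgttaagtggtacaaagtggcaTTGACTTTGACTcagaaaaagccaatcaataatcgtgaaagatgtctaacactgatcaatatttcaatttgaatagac
TI1, chr2:18066710-18066959, plus strand: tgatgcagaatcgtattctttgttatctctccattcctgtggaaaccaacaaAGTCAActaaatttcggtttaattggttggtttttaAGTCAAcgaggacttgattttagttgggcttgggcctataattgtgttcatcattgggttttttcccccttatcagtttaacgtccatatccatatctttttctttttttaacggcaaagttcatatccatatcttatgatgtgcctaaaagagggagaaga
CRK5 and AT2G43620 held 3 copies each, WRKY62 and TI1 2 each, and all 4 genes were lower in every caterpillar library than in every mite library.

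**Figure D3:**
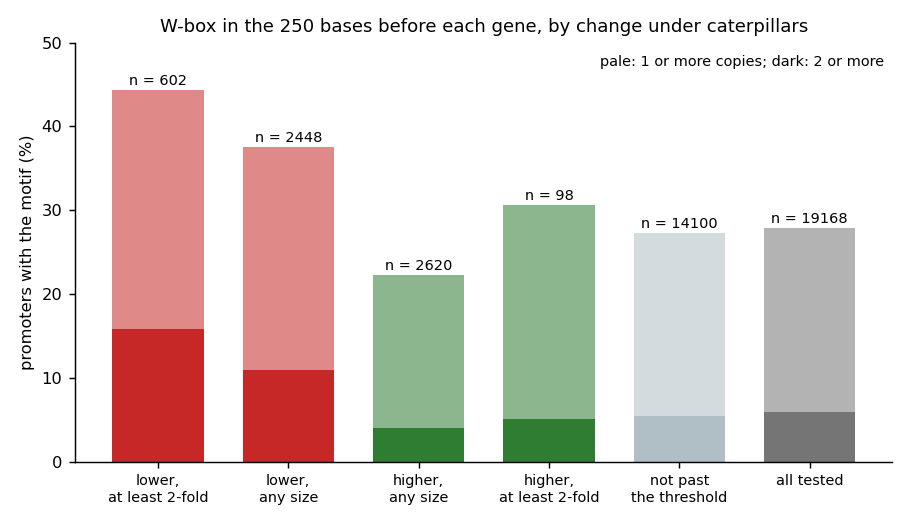
Bars give the percent of 250-base promoters with a W-box, pale for at least 1 copy and dark for at least 2, by the change of the gene under caterpillars; n is the number of promoters. Genes at least 2-fold lower under caterpillars stand highest, at 44.4%, and those higher by any amount lowest, at 22.3%.

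Genes of protein folding in the endoplasmic reticulum (ER) were lower without exception in the list. All 15 tested genes of chaperones, disulfide isomerases and their regulator were lower under caterpillars, with a median of −0.51 and a range between −1.67 for the Hsp70 chaperone BIP3 and −0.23 for the calreticulin CRT1B. The summed level was between 1923 and 2018 CPM in the caterpillar libraries and between 2646 and 3119 CPM in the mite libraries. CRT3 (AT1G08450), the plant-specific calreticulin needed for folding of the receptor EFR, had 67.7, 61.8, 67.5 and 57.1 CPM in the caterpillar libraries, against 195, 133, 137 and 146 CPM in the mite libraries. The groups were apart, with a log2 fold change of −1.27 ± 0.11 (SE, edgeR adjusted p = 3.13e-06). The luminal Hsp70 chaperones BIP1 and BIP2 were at −0.57 and −0.59, the luminal Hsp90 SHD at −0.51, and SDF2 and ERDJ3B, partners of BIP in receptor folding, at −0.41 and −0.51. BZIP60 (AT1G42990), the transcription factor spliced by IRE1 when unfolded proteins accumulate, was lower by 0.34, with overlapping groups, and lost its call without caterpillar library 3 or 4, without mite library 1 or 3, or without caterpillar libraries 3 and 4. Total counts do not tell its spliced form.

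The ER stress element, CCAAT followed after 9 bases by CCACG on either strand, stood in 2 of 15 promoters of this list (13.3%), against 0.4% of all 19168. The G-box CACGTG stood in 7 of the 15 (46.7%), against 7.5% of all. It was not particular to lower genes: it stood in 30.4% of flavonoid and 21.4% of light-harvesting promoters, lists with mostly higher genes. Aliphatic glucosinolate promoters held it in 7.4%, and SA and CRK promoters in 0.0%. Mean GC content was 34.7% in the 15 promoters and 31.6% in all. The 2 promoters with the ER stress element are shown, with its fixed letters in capitals, because it is the motif known from genes of this group; in both, its CCACG overlaps a G-box.
SHD, chr4:12556059-12556308, minus strand: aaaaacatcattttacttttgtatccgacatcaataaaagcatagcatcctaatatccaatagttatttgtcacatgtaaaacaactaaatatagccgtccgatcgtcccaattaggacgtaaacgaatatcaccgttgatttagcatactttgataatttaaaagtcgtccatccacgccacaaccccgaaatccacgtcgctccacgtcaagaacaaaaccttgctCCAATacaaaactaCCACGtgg
PDIL1-2, chr1:29126398-29126647, plus strand: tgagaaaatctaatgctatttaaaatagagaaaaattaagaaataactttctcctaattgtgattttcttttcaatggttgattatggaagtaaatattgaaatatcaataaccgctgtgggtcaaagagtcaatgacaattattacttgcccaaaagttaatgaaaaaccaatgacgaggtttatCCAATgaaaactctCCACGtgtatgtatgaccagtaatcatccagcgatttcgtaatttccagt
SHD had 394, 384, 410.4 and 390.5 CPM in the caterpillar libraries, against 617, 557, 516 and 551 CPM in the mite libraries. PDIL1-2, a disulfide isomerase, had 35.7, 35.1, 37.0 and 35.3 CPM, against 75.4, 56.9, 57.0 and 61.5 CPM, and both genes were lower in every caterpillar library.

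In several jasmonate genes caterpillar libraries 1 and 2 lay nearer the mite libraries than caterpillar libraries 3 and 4. Of 17 tested genes of JA synthesis, 5 were lower and none higher under caterpillars, with a median of −0.23. That is 29.4% changed, where 26.4% of all tested genes changed in either direction and 12.7% were lower. LOX2 (AT3G45140), the main leaf lipoxygenase of the pathway, had 9129.7, 9009, 5808 and 7055 CPM in the caterpillar libraries, against 10601, 10085, 10604 and 12202 CPM in the mite libraries. Every caterpillar value was below every mite value, most clearly in caterpillar libraries 3 and 4, and the log2 fold change was −0.49 ± 0.12 (SE, edgeR adjusted p = 0.0092). Allene oxide cyclase AOC1 (AT3G25760) was at −0.85 ± 0.21 and the lipoxygenase LOX6 (AT1G67560) at −0.60 ± 0.075, and AOC3 and AIM1 made up the 5. LOX2 was not called with all 24 libraries in 1 fit or with limma without a filter. AOC3 dropped out on leaving out caterpillar library 3 or 4, mite library 1, 3 or 4, or caterpillar libraries 3 and 4, and AIM1 without caterpillar libraries 1 and 2. Allene oxide synthase AOS (AT5G42650) had 1537, 1743, 948 and 1077 CPM in the caterpillar libraries, against 1669.6, 1497, 1670.0 and 1833 CPM in the mite libraries, and did not pass, at −0.33 ± 0.15 (SE, edgeR adjusted p = 0.13). Its caterpillar libraries 1 and 2 lay within the mite range and caterpillar libraries 3 and 4 below it, and AOS was lower without caterpillar library 2 or without caterpillar libraries 1 and 2. Without caterpillar libraries 1 and 2, 12 genes of JA synthesis were lower, and without caterpillar library 1 or 2 alone it was 8. Since these pairs were chosen after the levels were seen, leaving out the caterpillar libraries nearer the mites lowers the caterpillar mean by choice. Such counts here and below describe the pairs and are no test. Members higher under caterpillars numbered 4 without caterpillar libraries 3 and 4, 2 without caterpillar library 3 alone, and 1 on leaving out any 1 mite library.

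Genes of JA turnover moved in both directions. Of 11, 6 were lower and 3 higher, with a median of −0.79. ILL5 (AT1G51780), annotated as an amidohydrolase of the family that splits hormone conjugates, had 43.6, 30.3, 8.27 and 15.2 CPM in the caterpillar libraries, against 3.49, 1.48, 3.83 and 4.28 CPM in the mite libraries. All caterpillar libraries were above all mite libraries, though caterpillar libraries 1 and 2 stood well above the other pair, and the log2 fold change was 2.86 ± 0.45 (SE, edgeR adjusted p = 0.00037). Its relatives ILL6 and IAR3, which split JA-isoleucine, did not pass, at −0.15 and −0.05; both were lower without caterpillar libraries 1 and 2 and higher without caterpillar libraries 3 and 4. The P450 enzymes that oxidise JA-isoleucine were split: CYP94B3 (AT3G48520) was higher at 1.24 ± 0.30 and CYP94B1 (AT5G63450) at 0.94 ± 0.29, while CYP94C1 (AT2G27690), which acts later, was lower at −1.49 ± 0.21. CYP94B3 had 22.4, 21.9, 7.29 and 11.9 CPM in the caterpillar libraries and 8.56, 4.73, 6.72 and 6.52 CPM in the mite libraries, so that the groups overlapped, and its call was lost without caterpillar libraries 1 and 2. The call on CYP94B1 was lost without caterpillar library 1 or 2, without mite library 1, 2 or 4, and without caterpillar libraries 1 and 2. The sulfotransferase ST2A and the 2-oxoglutarate oxygenases JRG21, AT3G11180, AT5G05600 and AT2G38240 were lower, at −0.94, −0.96, −2.32, −0.88 and −0.79; AT2G38240 dropped out without mite library 1, and it and ST2A without caterpillar libraries 3 and 4. Without caterpillar libraries 1 and 2, 1 of the 11 was higher, and without caterpillar libraries 3 and 4, 5 were.

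The core of JA signalling did not pass the test: COI1 was at 0.09, MYC2 at −0.14, MYC3 at −0.13 and MYC4 at −0.12, though MYC2 and MYC3 were lower without caterpillar libraries 1 and 2. Of 22 tested signalling genes and repressors, 6 were lower and none higher, with a median of −0.20. The share changed was 27.3%, where 26.4% of all tested genes changed in either direction and 12.7% were lower. JAZ10 (AT5G13220), a repressor whose transcript is itself induced by JA, had 63.8, 66.6, 33.1 and 28.0 CPM in the caterpillar libraries, against 113, 82.0, 105 and 109 CPM in the mite libraries. Caterpillar libraries 1 and 2 stood at about the same level, above caterpillar libraries 3 and 4, and all 4 lay below the mite libraries; the log2 fold change was −1.10 ± 0.22 (SE, edgeR adjusted p = 0.0024). JAZ5, JAZ6, AT3G22275 and the bHLH repressors JAM1 and JAM3 were the other lower members, of which JAZ5 and AT3G22275 dropped out without mite library 3 and JAM3 without caterpillar library 2 or mite library 1 or 4. The 6 became 14 without caterpillar libraries 1 and 2, and 3 without caterpillar libraries 3 and 4, when 1 member was higher.

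Outputs of the MYC branch, the arm of JA signalling that answers wounding, held both genes that did not pass and genes that were several-fold lower under caterpillars. VSP2 (AT5G24770), the vegetative storage protein most used as its marker, had 4974, 3529, 2757 and 3136 CPM in the caterpillar libraries and 3581, 3636, 3672 and 4475 CPM in the mite libraries. The groups overlapped, and the log2 fold change of −0.09 ± 0.14 (SE) has an approximate normal 95% interval from −0.38 to 0.19. Without caterpillar library 1, or without caterpillar libraries 1 and 2, VSP2 was lower. The gene THI2.1 (AT1G72260), a thionin, had 5.64, 12.1, 7.47 and 6.24 CPM in the caterpillar libraries, against 67.7, 59.1, 72.2 and 73.6 CPM in the mite libraries. TAT3 (AT2G24850), a tyrosine aminotransferase family gene, had 469, 497, 405 and 305 CPM, against 2353, 1590.3, 1527 and 1939.9 CPM. Both were lower in every caterpillar library, at −3.12 ± 0.17 and −2.15 ± 0.15 (SE), with edgeR adjusted p of 6.76e-08 and 7.27e-07. NATA1, which acetylates ornithine, VSP1 and the chlorophyllase CLH1 were also lower, at −1.33, −0.70 and −0.69, which makes 5 of 10, with none higher and a median of −0.42. Without caterpillar libraries 3 and 4, 2 of the 10 were higher.

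**Figure D4:**
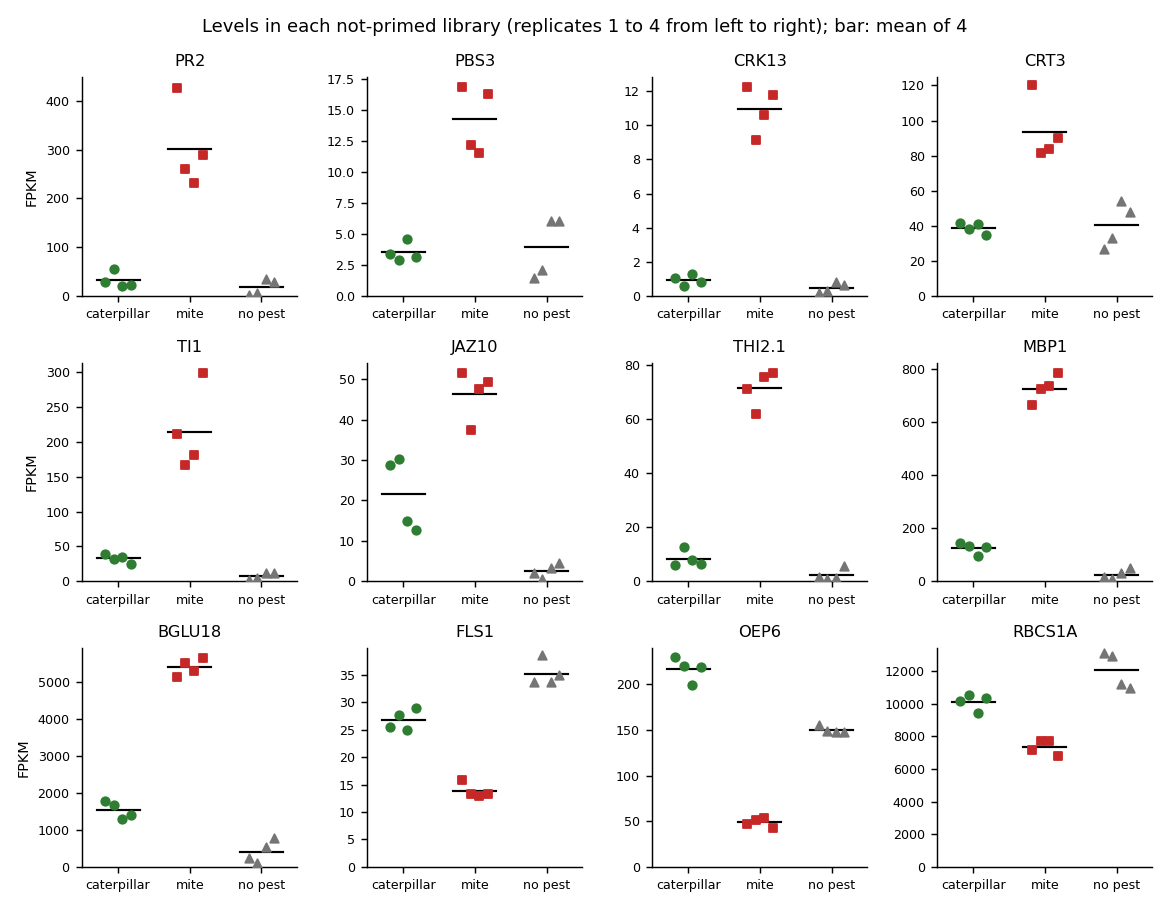
FPKM of 12 genes in the 4 not-primed libraries of each group, caterpillar (green circles), mite (red squares) and no pest (grey triangles), with the mean as a bar. PR2 under caterpillars lies between 19.3 and 55.5 FPKM, against 231 to 427 FPKM under mites, and OEP6 between 199 and 230.2 FPKM, above both other groups.

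The ethylene and ERF branch, which answers necrotrophs and is often set against the MYC branch, gave 6 lower and 1 higher gene among 20, with a median of −0.59. In this list 35.0% changed, against 26.4% of all tested genes. PR4 (AT3G04720), a chitin-binding protein of this branch, had 42.9, 36.8, 58.5 and 61.8 CPM in the caterpillar libraries, against 128, 143, 151 and 126 CPM in the mite libraries, at −1.45 ± 0.13 (SE, edgeR adjusted p = 5.91e-06). The defensin PDF1.2A (AT5G44420) had 24.5, 8.6, 8.75 and 73.9 CPM in the caterpillar libraries and 29.9, 42.6, 91.9 and 44.6 CPM in the mite libraries. Its spread within groups was wide, the groups overlapped, and −0.84 ± 0.54 (SE) did not pass (edgeR adjusted p = 0.29); it was lower without caterpillar library 4 or without caterpillar libraries 3 and 4. PDF1.4 was lower at −2.86, the ethylene synthesis gene ACS2 at −1.31, the activator ERF2 at −1.29, and EIN3, the master factor of ethylene signalling, at −0.26. EBF2, whose F-box protein removes EIN3, was higher at 0.41. The activators ORA59 and ERF1B did not pass, at −0.54 and −0.80. ACS2 dropped out without caterpillar libraries 3 and 4.

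Genes of leaf volatiles differed between enzymes. Of 8 tested, 7 were lower and 1 higher, with a median of −1.4. TPS04 (AT1G61120), the geranyllinalool synthase that starts synthesis of the homoterpene TMTT, had 113, 115, 56.2 and 56.3 CPM in the caterpillar libraries, against 435, 297, 304 and 418 CPM in the mite libraries. CYP82G1 (AT3G25180), the P450 that finishes TMTT, had 4.03, 4.47, 1.79 and 1.94 CPM, against 32.4, 17.1, 21.4 and 22.4 CPM. Both steps were thus lower in all caterpillar libraries, at −2.10 ± 0.23 and −2.99 ± 0.26 (SE). TPS10 (AT2G24210), a linalool synthase, was higher at 1.08 ± 0.36 (SE, edgeR adjusted p = 0.041), with 43.7, 15.7, 9.18 and 19.2 CPM in the caterpillar libraries and 13.5, 6.60, 10.6 and 10.1 CPM in the mite libraries, and its groups overlapped. The call on TPS10 was lost with DESeq2 (adjusted p = 0.105) and in all 3 limma fits (adjusted p between 0.117 and 0.202), and also without caterpillar library 1 or 4, without mite library 2, 3 or 4, and without caterpillar libraries 1 and 2. The 7 became 4 without caterpillar library 4 or mite library 1 or 4, and 3 without caterpillar libraries 3 and 4.

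Genes of proteins that act in the herbivore's gut were mostly lower. Of 9 tested protease inhibitors and anti-digestive proteins, 5 were lower and 1 higher, with a median of −0.82. TI1 (AT2G43510), a trypsin inhibitor whose promoter is printed above, had 29.9, 24.4, 26.6 and 18.9 CPM in the caterpillar libraries, against 159.6, 126, 138 and 226 CPM in the mite libraries. The lowest mite library held several times the highest caterpillar library, at −2.71 ± 0.17 (SE, edgeR adjusted p = 2.35e-07). Its neighbours TI2 (AT2G43520) and AT2G43530 were at −1.95 ± 0.11 and −1.58 ± 0.13. The arginase ARGAH2, which depletes arginine in the gut, did not pass, at −0.13, and was called without caterpillar libraries 1 and 2. AT2G38870, annotated in the potato inhibitor I family, was the higher gene, at 0.39, and was not higher without caterpillar libraries 1 and 2.

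Glucosinolate synthesis differed by branch. Aliphatic glucosinolates, made from chain-elongated methionine, had 18 of 27 tested genes higher and 2 lower under caterpillars, with a median of 0.35; the summed level was between 5217 and 6925 CPM in the caterpillar libraries and between 4623 and 4788 CPM in the mite libraries. MYB28 (AT5G61420), the main activator of the branch, had 72.4, 67.1, 76.1 and 69.2 CPM in the caterpillar libraries, against 44.1, 52.8, 47.1 and 40.2 CPM in the mite libraries. All caterpillar values were higher, at 0.63 ± 0.079 (SE, edgeR adjusted p = 7.15e-05). Its relative MYB29 was at 0.35. Of the chain elongation steps, MAM1 (AT5G23010) was at 0.53 ± 0.10, IPMI2 (AT2G43100) at 0.84 ± 0.10 and IMD1 at 0.49. Of the core P450 enzymes, CYP83A1 was at 0.42 and CYP79F1 at 0.24, and the call on CYP79F1 was lost on leaving out caterpillar library 1 or 2, any 1 mite library, or caterpillar libraries 1 and 2. GSTU20, a glutathione transferase of the branch, was at 0.56, and BAT5, a plastid transporter, at 0.52. The lower genes were the transporter GTR2, at −0.55, and the side-chain oxygenase FMOGS-OX2, at −0.27. FMOGS-OX2 dropped out, leaving 1 lower gene, on leaving out caterpillar library 2, 3 or 4, mite library 1, 3 or 4, or caterpillar libraries 3 and 4, and 5 genes were lower without caterpillar libraries 1 and 2. AOP2 is not analysed here.

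Indole glucosinolates, made from tryptophan, had 9 of 23 tested genes lower and none higher, with a median of −0.35. CYP81F4 (AT4G37410), which hydroxylates the indole ring, had 339.7, 294, 242 and 231 CPM in the caterpillar libraries, against 436, 527, 372 and 503 CPM in the mite libraries, at −0.73 ± 0.12 (SE, edgeR adjusted p = 0.00065). The methyltransferase IGMT1 (AT1G21100) was at −0.85 ± 0.16 and the transferase GSTF10 at −0.41, and these 3 kept their calls on leaving out any 1 library or either caterpillar pair, though CYP81F4 was not called with all 24 libraries in 1 fit. The entry enzyme CYP79B2 did not pass, at −0.35, and was lower without caterpillar library 1 or 2 or both. The count of lower genes moved with the fit and with single libraries: it was 4 with all 24 libraries in 1 fit and with limma without a filter, 3 without caterpillar library 4, 4 without mite library 1, 3 or 4, 4 without caterpillar libraries 3 and 4 (with 2 members higher), and 14 without caterpillar libraries 1 and 2; 1 member was higher without caterpillar library 3. Camalexin and indole cyanogenic genes, which also start from tryptophan, gave 5 lower and none higher among 8, with a median of −0.93: the exporter PEN3 was at −0.92 and CYP71A12 at −1.10, while PAD3, the last step of camalexin, did not pass, at −0.34, and was lower without caterpillar library 3.

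Breakdown of glucosinolates split by partner. The myrosinase TGG1 (AT5G26000), which cuts glucosinolates when a leaf is crushed, was higher under caterpillars at 0.30 ± 0.064 (SE), and TGG2 did not pass, at 0.17. MBP1 (AT1G52040), a myrosinase-binding protein, had 251, 233, 166 and 223 CPM in the caterpillar libraries, against 1149, 1257, 1279 and 1366 CPM in the mite libraries. The groups lay far apart, with a log2 fold change of −2.53 ± 0.11 (SE, edgeR adjusted p = 1.12e-08), and its near relative MBP2 was at −1.61. The nitrile specifier NSP1 and the atypical myrosinase PEN2 were lower at −0.85 and −0.38, so that 5 of 11 genes were lower and 1 higher, with a median of −0.13; without caterpillar library 2, TGG2 was higher as well, which makes 2. ER bodies store beta-glucosidases: BGLU18 (AT1G52400) had 4126, 3857, 3018 and 3224 CPM in the caterpillar libraries, against 11849, 12717, 12298 and 13039 CPM in the mite libraries, at −1.81 ± 0.094 (SE, edgeR adjusted p = 5.01e-08). Among changed genes with groups apart, it had the lowest difference on the per-length scale, with a mean of 1529 FPKM under caterpillars and 5386 FPKM under mites. Its regulator NAI1 was lower at −0.57, though not without caterpillar libraries 3 and 4, and 3 of the 6 ER body genes were lower and none higher, with a median of −0.46; without caterpillar library 1 all 6 were, and without caterpillar library 3 it was 5.

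Flavonoid and anthocyanin genes were higher under caterpillars. Of 23 tested, 16 were higher and 1 lower, with a median of 0.51. FLS1 (AT5G08640), the flavonol synthase, had 41.3, 44.6, 40.2 and 46.8 CPM in the caterpillar libraries, against 25.5, 21.3, 20.7 and 21.4 CPM in the mite libraries. PAP1 (AT1G56650), a MYB activator of anthocyanin synthesis, had 42.1, 38.9, 23.3 and 30.4 CPM, against 11.7, 14.6, 16.3 and 15.0 CPM. Both groups of libraries were apart, at 0.96 ± 0.079 and 1.22 ± 0.16 (SE), with edgeR adjusted p of 2.37e-06 and 0.0001. Along the pathway, chalcone synthase CHS was at 0.38, its helper CHIL at 1.06, F3H at 0.60 and F3'H at 0.90; CHS was not called without caterpillar libraries 1 and 2. DFR, which commits to anthocyanins, did not pass, at 0.30, and was higher without caterpillar library 2 or mite library 2. MYB113, a relative of PAP1, was the lower gene, at −1.0; lower genes numbered 2 without caterpillar library 2 and without caterpillar libraries 1 and 2. In the wider phenylpropanoid pathway 8 of 18 genes were higher and 3 lower, with a median of 0.08. The entry enzymes PAL1 and PAL2 were higher at 0.37 and 0.54 and 4CL3 (AT1G65060), the ligase isoform tied to flavonoids, at 1.01 ± 0.10. CCR2 (AT1G80820), a cinnamoyl-CoA reductase linked to defence lignin, was lower at −2.08 ± 0.20 (SE), with 9.61, 6.71, 3.97 and 6.09 CPM in the caterpillar libraries, against 33.4, 22, 26.4 and 27.0 CPM in the mite libraries. Without caterpillar libraries 1 and 2 the call on PAL1 was lost, and 5 phenylpropanoid genes were higher and 5 lower.

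Photosynthesis genes were higher under caterpillars by small amounts. All 10 Calvin cycle genes were higher, with a median of 0.33, and the summed level was between 47691 and 52371 CPM in the caterpillar libraries and between 36659 and 41478 CPM in the mite libraries. RBCS1A (AT1G67090), a Rubisco small subunit, had 12842, 13317, 12006 and 13080.3 CPM in the caterpillar libraries, against 8985, 9709, 9764 and 8541 CPM in the mite libraries, at 0.47 ± 0.067 (SE, edgeR adjusted p = 0.00019). The groups were apart, and the call was lost with limma without a filter. RBCS1A had the highest difference on the per-length scale among changed genes with groups apart, with means of 10137 FPKM under caterpillars and 7347 FPKM under mites. Of 28 light-harvesting and photosystem genes, 23 were higher and none lower, with a median of 0.22; LHCB2.3 (AT3G27690) was at 0.68 ± 0.068 and LHCB1.3 (AT1G29930) at 0.34 ± 0.066. The 23 became 14 without caterpillar library 4, 13 without mite library 1 and 13 without caterpillar libraries 1 and 2. Ferredoxin FED A had 1654, 1609.6, 1813 and 1696 CPM in the caterpillar libraries, against 1029, 1038, 1072 and 967 CPM in the mite libraries. Of 8 chlorophyll genes 4 were higher and 1 lower, with a median of 0.25: the glutamyl-tRNA reductase HEMA1, the entry step of synthesis, was at 0.72, and NYE1, which starts breakdown, at −0.38. Ribosomal protein genes gave 190 higher and 3 lower among 315 tested, with a median of 0.23; 123 were higher when counts were scaled by library totals only, and 91 without caterpillar libraries 3 and 4.

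Other lists held few or mixed changes. In the sulfur list 2 of 15 were higher and 1 lower, with a median of 0.05, and APR2, a key enzyme of sulfate reduction, was at 0.45. In the list of cell wall growth 2 of 19 were higher and 5 lower (median 0.04), with the wall enzyme XTH18 at −1.41 and the expansin EXPA10 at 0.50. In the abscisic acid list 3 of 21 were higher and 5 lower (median −0.09), with the receptors PYL4 and PYL5 at 0.59 and 0.59 and the proline synthesis gene P5CS1 at −0.82; the 5 became 3 without caterpillar library 4 or mite library 4 and 1 without caterpillar libraries 3 and 4. Heat shock genes were lower in 3 of 8 (median −0.35), with the heat shock factor HSFA2 at −1.11 and HSP90-1 at −0.82, and in 5 without caterpillar library 2 or without caterpillar libraries 1 and 2. Detoxification genes were higher in 2 of 7 and lower in 1 (median 0.003); the 2 became 1 without caterpillar library 1 or mite library 2 or 3, and 0 without caterpillar library 2, mite library 1, or caterpillar libraries 1 and 2. Senescence genes were higher in 1 of 11 and lower in 3 (median 0.07), among them SAG13 at −1.39, and 2 were higher without caterpillar library 1 or 4 or without caterpillar libraries 3 and 4. Clock genes were higher in 4 of 11 and lower in 2 (median 0.12), and 1 was lower without either pair of caterpillar libraries; the morning factors LHY and CCA1 were at 0.58 and 0.36. Only MYB30 passed among 7 wax genes (median 0.17), higher at 0.49; no wax gene was higher without caterpillar library 4 or mite library 1, 2 were without caterpillar libraries 1 and 2, and 1 was lower without mite library 2. MYB30 itself also lost its call without caterpillar library 3 or without caterpillar libraries 3 and 4. Higher sulfur genes numbered 1 without caterpillar libraries 1 and 2 and 4 without caterpillar libraries 3 and 4. Lower sulfur genes numbered 4 without caterpillar libraries 1 and 2, and 0 without caterpillar library 1, 3 or 4, mite library 2, 3 or 4, or caterpillar libraries 3 and 4. Higher cell wall genes numbered 4 without caterpillar library 2, and 1 without caterpillar library 1 or 4, mite library 1, 3 or 4, or caterpillar libraries 3 and 4.

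Few markers of other tissues passed the test. The share changed was 14.3% in the guard cell line and 16.7% in phloem and xylem, against 26.4% of all tested genes. KAT1 was the only changed gene among 7 of the guard cell line, higher at 0.36 (list median 0.07). The summed level of these 7 was between 63.95 and 73.3 CPM in the caterpillar libraries and between 59.0 and 63.2 CPM in the mite libraries, without overlap. FAMA and KAT1 held the highest counts among them. SLAC1, which did not pass, went the other way, with means of 0.907 FPKM under caterpillars and 1.41 FPKM under mites. XCP1 was the only changed gene among 6 of phloem and xylem, lower at −0.40 (median −0.10), with sums between 519 and 605 CPM in the caterpillar libraries and between 571 and 647 CPM in the mite libraries. No gene passed among 5 of trichome and epidermis (median −0.02), 3 of dividing cells (median 0.03), 3 of flowers (median −0.28) or the 2 tested root markers (median −0.29). The root markers CASP1 and WOX5, which were below the filter, held 9 and 6 counts over all 8 libraries. Of the tested pair, SCR held between 816 and 1271 counts in each library, and RCI3 between 0 and 31. Low counts therefore do not hold for the whole root list. Light-harvesting genes, which mark green tissue, summed to between 109419 and 126336 CPM in the caterpillar libraries and between 98377 and 103984 CPM in the mite libraries. The part of these markers in the other differences was not tested. A guard cell gene was lower without caterpillar library 1 or mite library 2, and a root marker was lower without caterpillar libraries 3 and 4. In phloem and xylem 1 gene was higher without caterpillar library 1 or mite library 1, none was lower without caterpillar library 4 or mite library 2, and 2 were lower without caterpillar library 2 or caterpillar libraries 1 and 2.

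Further single genes had large fold changes as well. AT3G49340, annotated as a cysteine proteinase, had 4 counts in all caterpillar libraries together and 491 in the mite libraries, 0, 0.0486, 0.0729 and 0.0380 CPM against 7.23, 5.86, 3.83 and 6.57 CPM, and gave the lowest fold change, −6.90 ± 0.40 (SE, edgeR adjusted p = 1.15e-07). EARLI1 (AT4G12480), a lipid-transfer-like protein, had 2.88, 4.28, 6.05 and 2.13 CPM in the caterpillar libraries, against 46.9, 46.5, 33.9 and 45.2 CPM in the mite libraries. AT1G54020, annotated as a GDSL lipase, had 28.3, 29.6, 19.5 and 22.6 CPM, against 257, 226, 246 and 296 CPM. These genes were lower in every caterpillar library, the last pair at −3.47 ± 0.22 and −3.36 ± 0.12 (SE). The beta-glucosidase BGLU22, of the ER body list, was at −3.63, AT5G24200, annotated in the alpha/beta-hydrolase superfamily, at −3.38, AT4G12490 at −3.26 and the methionine sulfoxide reductase MSRB7 at −3.06.

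In the other direction stood OEP6 (AT3G63160), a protein of the outer chloroplast envelope, with 146, 139, 127 and 139 CPM in the caterpillar libraries, against 29.8, 32.5, 33.9 and 27.2 CPM in the mite libraries. Its replicates were tight and far apart between pests, at 2.16 ± 0.075 (SE, edgeR adjusted p = 1.15e-09), 4.47-fold higher under caterpillars. 5PTASE11 (AT1G47510), an inositol polyphosphate phosphatase, was at 2.38 ± 0.23, and THI2.2 (AT5G36910), a thionin, at 1.74 ± 0.17, opposite in direction to THI2.1. The proline transporter ProT3 was at 1.58, the methyl esterase MES18 at 1.69, the reductase ChlAKR at 1.66 and the Dof-type factor AT1G26790 at 1.76. Among weakly expressed genes, AT4G28140, annotated as an integrase-type DNA-binding protein, had 3.74, 3.6, 0.693 and 1.6 CPM in the caterpillar libraries and 0, 0.0493, 0.158 and 0.125 CPM in the mite libraries, at 4.71 ± 0.70 (SE); it was chosen after its value was seen.

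Levels in the pest-free libraries are given for both pests. Of the 602 genes at least 2-fold lower under caterpillars, 398 (66.1%, against 13.4% of all tested genes) had all 4 mite libraries above all 4 pest-free libraries while the caterpillar libraries were not apart from them, and in 120 (19.9%, against 10.5%) both pests were above. These genes were chosen for a higher level under mites, which itself favours the first pattern. Of the 99 genes at least 2-fold higher under caterpillars, 28 had only the mite libraries below the pest-free ones (28.3%, against 11.9% of all). In 22 both pests were below (22.2%, against 11.1%), in 19 only the caterpillar libraries were above (19.2%, against 2.04%) and in 12 both were above (12.1%, against 10.5%). Choosing these genes for a higher level under caterpillars likewise favours the patterns where only 1 of the pests is apart. Over changes of any size, 1417 of 2448 lower genes had only the mite libraries above and 657 both pests above, while 1181 of 2628 higher genes had only the mite libraries below, 1045 both pests below and 105 only the caterpillar libraries above. PR2 averaged 31.6 FPKM under caterpillars and 302 FPKM under mites, and the pest-free libraries had 1.54, 6.35, 33.9 and 28.1 FPKM, libraries 3 and 4 above libraries 1 and 2. OEP6 averaged 217 FPKM under caterpillars, 48.9 FPKM under mites and 149.9 FPKM without pests, so that it lay above the pest-free level under caterpillars and below it under mites. TI1 averaged 32.9 FPKM under caterpillars, 215 FPKM under mites and 7.38 FPKM without pests, so that both pests were above. Since both pests would be set against the same pest-free libraries, these counts are a description without a test.

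In primed plants the same contrast, from a fit of all 16 infested libraries, gave 4517 changed genes among 19777 (22.8%), 2133 higher (10.8%) and 2384 lower (12.1%) under caterpillars. Of 19245 genes tested in both fits, 2979 were called in both in the same direction, 58.7% of the not-primed calls and 66.6% of the primed calls, and 6 in opposite directions. Across these genes the log2 fold changes had a Pearson r of 0.757; genes are not independent replicates, and no library is shared. Of the 602 genes at least 2-fold lower under caterpillars in not-primed plants, 530 were also called lower in primed plants, and of the 99 at least 2-fold higher, 57 were called higher. SA genes had a median of −1.12 in not-primed and −1.17 in primed plants, ER folding genes −0.51 and −0.48, flavonoid genes 0.51 and 0.77, and Calvin cycle genes 0.33 and 0.15. VSP2, which did not pass in not-primed plants, was at 0.27 ± 0.15 in primed plants (SE, edgeR adjusted p = 0.21).

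**Figure D5:**
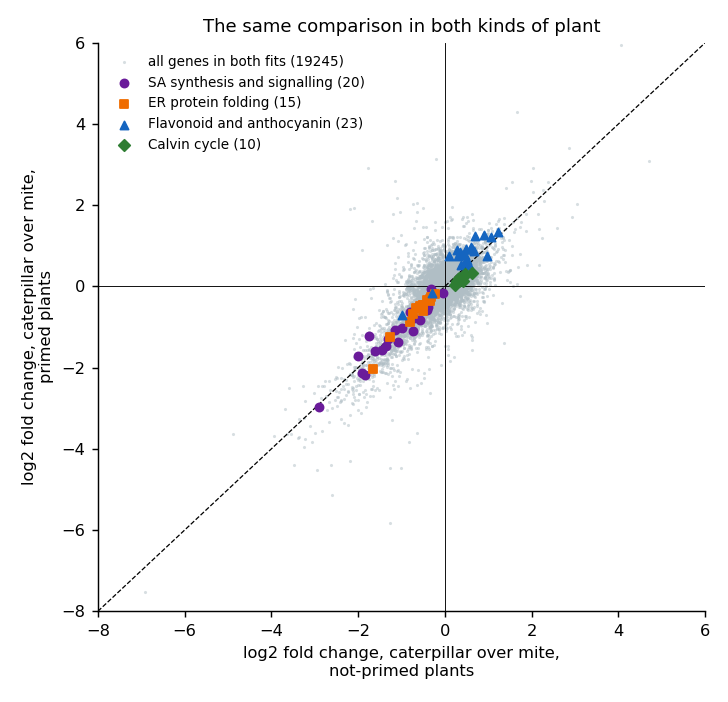
Log2 fold change of caterpillar over mite in not-primed plants (x axis) and in primed plants (y axis) for 19245 genes in grey and 4 gene lists in colour; the dashed line marks equal values. SA and ER folding genes lie low on both axes and flavonoid genes high on both.

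The difference between not-primed and primed plants in this contrast, tested as an interaction in the same fit, passed for 3 of 19777 genes (0.0152%), with 1920 at an unadjusted p under 0.05. OEP6 (AT3G63160) was at 2.16 ± 0.075 in the not-primed fit and at 1.4 ± 0.082 in primed plants, a difference of 0.76 ± 0.11 (SE, edgeR adjusted p = 0.031). The other 2 were AT1G14890, annotated as an invertase or pectin methylesterase inhibitor, with a difference of −0.74 ± 0.12, and AT3G32980, annotated as a peroxidase, with a difference of −1.34 ± 0.22. These calls moved with single libraries. The count was 0 without not-primed caterpillar library 2 or 4, not-primed mite library 2, primed caterpillar library 1 or primed mite library 4, 1 without not-primed mite library 3 or primed mite library 1 or 2, and 13 without not-primed caterpillar library 1 or primed caterpillar library 3. DESeq2 gave 98. For VSP2 the difference was −0.36 ± 0.21 (SE, edgeR adjusted p = 0.6), which did not pass either.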

How the data were processed

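Per the labels' protocols, a Qiagen RNeasy kit gave the RNA and a NEBNext Ultra kit the libraries. HISAT2 and genome build TAIR10 are named in the submitters' processing notes; which tool, annotation and strand setting were used for counting is not given in the sources used here. The authors deposited whole-number counts per gene, and separately FPKM per library, scaled by them for gene length and mapped fragments. Identifiers were paired with RefSeq TAIR10.1 names (99.1% matched), and promoters were read from TAIR10.1 with its own annotation.

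Counts of the 8 libraries, between 17915337 and 26956821 in total, were tested with edgeR 4.0.16 in R 4.3.3 (TMM, filterByExpr by group, quasi-likelihood F test, 2-sided, Benjamini-Hochberg adjusted p under 0.05 over all tested genes). Dividing the size of each log2 fold change by the root of its F gave the SE. The primed contrast and the interaction came from 1 fit of 16 libraries. The script was tested on simulated counts. No pair of libraries was close to sampling noise (chi-square per degree of freedom between 4.717 and 16.38). Alternatives were a replicate block, all 24 libraries in 1 fit, DESeq2 1.42.0, RLE factors, library totals, no filter, limma 3.58.1 on log2(FPKM + 1) and log2(FPKM + 0.1), and leaving out each library. The fits without caterpillar libraries 1 and 2, or without 3 and 4, were chosen after seeing the data.

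Genes were named by rule: the 12 highest and 12 lowest fold changes among changed genes with a group mean of at least 5 CPM and groups apart, the 6 highest and 6 lowest FPKM differences, the leading 3 genes by adjusted p of each gene list, 11 sentinel genes, further list members described by counts, and the leading genes of the interaction. The members, lists and families were chosen with earlier results of these data known. List members below the filter on low counts were not tested.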

Additional observations from a re-analysis of the deposited data

Results flagged for a closer look

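In 15 of 354 sets of 4 libraries, over the 177 genes with a value in the report, 1 library stood apart by more than Dixon's 95% critical value for the gap over the range; chance flags about 1 in 20 such sets. Among caterpillar libraries, AT4G10500 had 5.98 CPM in library 2, against 1.09 to 1.29 CPM in the others, FMOGS-OX2 had 82.7 CPM in library 1, against 61.9 to 64.6 CPM, and THI2.2 had 17.8 CPM in library 2, against 26.4 to 27.3 CPM. CRK42 had 36.1 CPM in caterpillar library 2, against 43.7 to 45.0 CPM, and CRT1B 180.8 CPM in caterpillar library 3, against 175 to 175.3 CPM. Mite library 1 stood highest for DMR6 with 158 CPM, SOBIR1 with 226 CPM, NPR1 with 38.3 CPM and FLS1 with 25.5 CPM. Mite library 4 stood highest for VSP2 with 4475 CPM and AT2G43530 with 966 CPM. Mite library 3 stood lowest for EARLI1 with 33.9 CPM and HSP90-1 with 64.6 CPM and highest for PDF1.4 with 13.7 CPM, and mite library 2 lowest for CYP79F1 with 477 CPM.

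The log2 fold change of caterpillar over mite differed between not-primed and primed plants, by the interaction test, in OEP6 by 0.76, in AT1G14890 by −0.74 and in AT3G32980 by −1.34.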

How the results depend on the processing

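Changed genes numbered 5076, and between 4351 (limma without a filter) and 5147 (all 24 libraries in 1 fit) under the other 9 tools, designs, scalings and filters, 4086 to 4861 on leaving out 1 library, 4773 without caterpillar libraries 1 and 2, and 3551 without caterpillar libraries 3 and 4. Genes at least 2-fold higher fell to 30 with limma on log2(FPKM + 1) and 32 without its filter, against 99, and those at least 2-fold lower to 330 and 331, against 602; the added 1 narrows fold changes of low genes by construction. The interaction count of 3 was 98 with DESeq2, over 11777 genes with an adjusted p, and 0 to 13 on leaving out 1 library. The cause was not tested. Same-numbered caterpillar and mite libraries did not deviate together (r between −0.0861 and 0.0227), and differently numbered ones had r between −0.0431 and 0.1026. The labels do not say what a shared number marks, and so few values cannot exclude a pairing. With the replicate block 4605 genes changed and the interaction gave 9. Among 508 named genes, none reversed under those 9 or on leaving out 1 library. Without caterpillar libraries 1 and 2, OPR3 turned to −0.36, FMOGS-OX1 to −0.19, SWEET12 to −0.34, APK2 to −0.29, GTR1 to −0.27 and ACX1 to −0.29; without caterpillar libraries 3 and 4, ILL6 turned to 0.24, IAR3 to 0.28 and JAZ2 to 0.28; none of these 9 was called with all 8 libraries. List and family counts moved by over 1.5 times as follows. With all 24 libraries in 1 fit, lower genes numbered 4 for indole glucosinolates (against 9), 2 for JA turnover (against 6), 2 for MYC-branch outputs and 2 for camalexin (against 5 each), 3 for JA synthesis and 3 for SA turnover (against 5 each), and higher flavonoid genes 9 (against 16); JA synthesis had 1 higher, flavonoids and sulfur 0 lower, senescence 2 higher, ribosomal proteins 5 lower, and phloem and xylem 1 higher and 0 lower. With limma without a filter, lower genes numbered 3 for SA turnover, 3 for JA synthesis, 4 for indole glucosinolates and 4 for volatiles (against 7), and higher genes 1 for JA turnover (against 3), 3 for light harvesting (against 23), 6 for the Calvin cycle (against 10), 1 for JA synthesis, for detoxification and for calmodulin-like proteins, and 0 for wax; phloem and xylem had 0 lower. In all 3 limma fits, aliphatic glucosinolates had 1 lower gene, volatiles 0 higher, sulfur 0 lower, and cell wall and resistance genes 1 higher each; light harvesting had 11 higher in the 2 with the filter. DESeq2 gave 5 lower ER body genes (against 3), 0 higher volatile genes, 1 higher JA synthesis gene, 2 higher senescence genes and 1 higher resistance gene. Without the filter on low counts, SA outputs and ER body genes lower numbered 5 each (against 3), with 1 JA synthesis and 2 senescence genes higher. With library totals only, both were again 5, flavonoids had 2 lower, guard cell markers 1 lower, cell wall, resistance and calmodulin-like genes 1 higher each, and ribosomal proteins 5 lower, as with RLE factors. The replicate block gave 15 higher light-harvesting genes, 1 for cell wall and for detoxification, 2 for senescence, and 3 lower abscisic acid genes (against 5).

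Of genes named here, these lost their call with all 24 libraries in 1 fit: NATA1, UGT76B1, CYP81F4, MYB113, AT5G05600, WRKY33, JRG21, CLH1, VSP1, CRT1B, ACS2, ST2A, LOX2, AT2G38240, XCP1, FMOGS-OX2 and CYP79F1. With limma without a filter these did: RBCS1A, LHCB1.3, PR1, CYP94B3, LOX2, PAL1, CHS, CRK21, NAI1, AT2G38240, XCP1, MYB30, BZIP60, CYP94B1, AT4G23440, TPS10, FMOGS-OX2 and CYP79F1. The last 5 of these also did in both limma fits with the filter. AT2G38240, CYP94B1, AT4G23440 and TPS10 were not called by DESeq2, AT4G23440 and CYP79F1 with library totals only, and CYP94B1 and CYP79F1 with the replicate block. Calls were gained by ALD1 (DESeq2, library totals, no filter), DFR (DESeq2, no filter), PR5 (all 24 libraries, library totals, no filter, replicate block), CYP79B2 and PEPR1 (library totals) and EPS1 (replicate block). Depth limits genes under a few CPM.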
